A study of Mus musculus with 16 samples.

Results

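Nodal, Lefty1, Lefty2, Skil, Smad7, Bmp4, Id1, Id2 and Id3, the genes of Nodal and BMP signalling and of its SMAD response that are described here, were found in the count table by matching each gene identifier to its mouse symbol. All 9 are among the 46983 genes of the table, and 9 of 9 are among the 12805 genes with enough reads to be tested, those that reach 1 CPM (a read count scaled to a common library size) in 10 or more of the 16 libraries. The libraries came from 46C mouse embryonic stem cells (ESCs), a 129Ola line that carries GFP at the Sox1 locus and was grown on gelatin with knockout serum replacement and leukaemia inhibitory factor. Cells received RAM siRNA or, as control, a non-targeting siRNA, and were lysed 48 hr later after a short cycloheximide treatment. The labels do not say whether RAM siRNA was a single sequence or a pool, and the study's supplement names a single one, RAM siRNA 2, for its knockdown cultures. A part of each lysate was kept as input (cytoplasmic RNA), and the rest was run on a sucrose gradient from which fractions 17 to 22 were pooled as polysomes. Each of the 4 groups, input control, input RAM siRNA, polysome control and polysome RAM siRNA, has 4 replicates, which the study describes as biological replicates.

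Nodal is a secreted ligand that binds activin receptors with the co-receptor Cripto (Tdgf1) and leads to phosphorylation of SMAD2 and SMAD3, which enter the nucleus with SMAD4 and act with partners such as FOXH1. BMP4 binds BMP receptors and acts through SMAD1, SMAD5 and SMAD9, whose best known targets are the Id genes. Both arms switch on their own inhibitors, among them the Lefty proteins, SMAD7 and SKIL. In ESC cultures Nodal is made by the cells themselves, and BMP signalling through Id proteins, together with leukaemia inhibitory factor, is known to hold back differentiation.

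After RAM siRNA the BMP target Id1 fell in input to 62.8% of its control level. In the edgeR fit that pairs same-numbered libraries, Smad7 and Id2 fell by 0.42 and 0.44 and Lefty1 and Lefty2 rose by 0.88 and 0.61 on the log2 scale, and in the unpaired edgeR fit these 4 did not pass. The ligand genes Nodal and Bmp4, and Skil and Id3, passed in neither fit. In polysomes Id1 and Smad7 fell and Lefty1 rose, in the paired fit only. Between the fractions of control cells Nodal, Lefty1 and Lefty2 were enriched in polysomes over input, and Skil and Smad7 were depleted. Such differences are common there: 33.1% of all genes tested were higher in polysomes and 34.3% lower.

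Libraries held between 16647523 and 20147833 counts. Ramac, which encodes RAM, the activating subunit of the mRNA cap methyltransferase RNMT, was at 10.6, 10.1, 10.8 and 11.6 CPM in control input and at 3.11, 2.67, 3.11 and 3.17 CPM with RAM siRNA. Every RAM siRNA input library was below every control one, at 28.0% of the control level by the fit (log2 fold change -1.84 with a standard error, SE, of 0.11; edgeR adjusted p = 7.24e-06). Transcripts of the ESC markers Pou5f1, Sox2, Nanog, Zfp42, Esrrb, Klf4, Tfcp2l1 and Tdgf1 were present in every library, with a summed level of 4250 to 4570 CPM in control input and 3540 to 4140 CPM with RAM siRNA. The largest part of this sum was Tdgf1, itself the Nodal co-receptor gene, at a mean of 2130 CPM in control input and 1890 CPM with RAM siRNA. Of these 8 markers, 2 fell in input and 0 rose, where 5.94% of all genes tested fell. With the replicate number as a factor (the replicate block) 7 fell and 0 rose, where 19.0% of all genes fell. The summed levels of markers of other cell types in control and RAM siRNA input were 13.6 to 16.4 and 11.9 to 15.5 CPM for mesendoderm (5 genes, 4 of them with a mean under 1 CPM), and 11.3 to 12.0 and 11.9 to 14.5 CPM for extraembryonic endoderm (5 genes, 4 of them tested, of which 2 rose, and 2 rose and 1 fell with the block). They were 24.7 to 29.5 and 16.3 to 23.0 CPM for trophoblast, 12.0 to 14.2 and 15.0 to 18.0 CPM for fibroblasts and 39.7 to 53.1 and 47.0 to 60.9 CPM for neural progenitors, 5 genes each. In both input groups 4 trophoblast, 2 fibroblast and 1 neural progenitor genes had a mean under 1 CPM. The trophoblast sum was mostly Tfap2c, at a mean of 25.3 CPM in control input and 19.5 CPM with RAM siRNA. Of the tested genes of these lists, 1 of 1 for trophoblast (Tfap2c) fell, 1 of 2 for fibroblasts rose, and 0 of 3 for neural progenitors and 0 of 1 for mesendoderm passed without the block. With the block 1 for neural progenitors fell and 1 rose, and 1 for mesendoderm (Eomes) fell. The fibroblast marker Col3a1 was at 0 counts in all control libraries of both fractions and at 0 or 1 count after RAM siRNA. What part these shifts have in the results for the signalling genes was not tested, and in bulk RNA fewer cells of a type and less RNA per cell cannot be told apart.

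**Figure D1:**
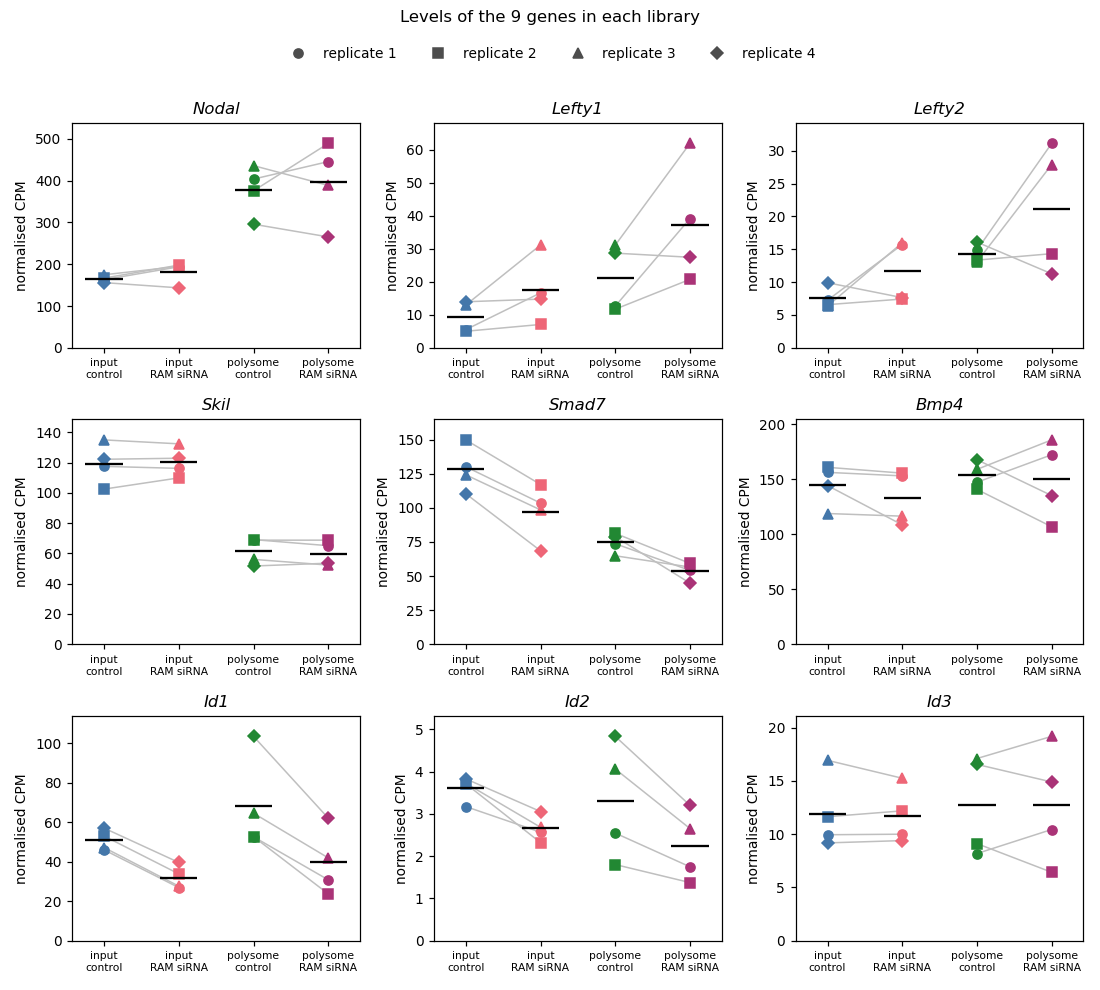
Normalised CPM (y axis, linear from 0) of each of the 9 genes in the 16 libraries, by group (x axis); marker shapes give the replicate, grey lines join same-numbered control and RAM siRNA libraries of a fraction, and black bars are group means of 4 libraries. Id1, Smad7 and Id2 were lower after RAM siRNA in all 4 pairs of both fractions, Lefty1 was higher in all pairs but polysome replicate 4 and Lefty2 in all but replicate 4 of both fractions, and Nodal and the Lefty genes were higher in polysomes than in input while Skil and Smad7 were lower.

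The 9 genes differed widely in abundance. CPM divided by the length of a gene's exons (RPKM) allow genes to be compared within a library. In control input the means were 78.8 RPKM for Nodal, 64.5 for Bmp4, 43.8 for Id1, 28.4 for Smad7 and 12.3 for Skil, followed by 6.65 for Id3, 5.33 for Lefty1, 2.88 for Lefty2 and 1.48 for Id2. In this order neighbours had ranges over the 4 control input libraries that did not overlap, except Id3 (5.12 to 9.45 RPKM) and Lefty1 (2.85 to 7.94 RPKM), and Lefty1 and Lefty2 (2.43 to 3.79 RPKM). Nodal stood first and Id2 last in all 4 groups. Id2 was covered by only 40 to 74 counts per input library and 24 to 85 per polysome library, so its values carry more counting error than those of the others.

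Nodal (ENSMUSG00000037171, GRCm38 chr10:61417972-61425338, plus strand, 3 exons) encodes the ligand itself. Its level in control input was 163, 167, 175 and 156 CPM in replicates 1 to 4, and in RAM siRNA input 194, 198, 195 and 144 CPM. Replicates 1 to 3 of RAM siRNA input lay above every control library and replicate 4 lay below every one. The fitted log2 change was 0.14 (SE 0.10, with adjusted p = 0.396 by the quasi-likelihood test of edgeR), and 0.13 with the replicate block (SE 0.05, adjusted p = 0.0515), so Nodal did not pass the test in either fit. Without RAM siRNA input replicate 4 it passed, at 0.24 (adjusted p = 0.0184), and with replicates 1 and 2 alone at 0.25 (adjusted p = 0.00995), whereas replicates 3 and 4 alone gave 0.03. In polysomes the control libraries were at 404, 376, 436 and 296 CPM and the RAM siRNA libraries at 446, 489, 389 and 265 CPM. These ranges overlapped almost entirely, with a log2 change of 0.12 (SE 0.22, adjusted p = 0.974), and replicate 4 was the lowest library of its group in both.

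Lefty1 (ENSMUSG00000038793, chr1:180935022-180938400, plus strand) and Lefty2 (ENSMUSG00000066652, chr1:180893108-180899103, plus strand) are neighbours with 4 exons each and encode secreted antagonists that keep Nodal from its receptor complex. They are near-identical paralogs, so reads can be shared between them and how the authors' counting split such reads is not given in the sources used here. The separate values of Lefty1 and Lefty2 are uncertain to that extent.

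The Lefty genes had the largest positive changes of the 9. Lefty1 in control input was at 5.50, 5.01, 12.98 and 13.96 CPM in replicates 1 to 4 and in RAM siRNA input at 16.7, 7.08, 31.2 and 14.8 CPM. Controls thus fell into a low pair (replicates 1 and 2) and a high pair (replicates 3 and 4), the ranges of the groups overlapped, and RAM siRNA was above the same-numbered control in 4 of 4 pairs. The log2 ratios of the pairs were 1.60, 0.50, 1.26 and 0.08. The fit gave a log2 change of 0.91 (SE 0.41, adjusted p = 0.168), which did not pass the test. With the replicate block Lefty1 rose by 0.88 (SE 0.15, adjusted p = 0.000127).

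Lefty2 in control input was at 7.24, 6.57, 6.35 and 9.91 CPM, and in RAM siRNA input at 15.7, 7.42, 15.99 and 7.64 CPM. RAM siRNA was clearly higher in replicates 1 and 3, close to control in replicate 2 and lower than control in replicate 4 (log2 ratios 1.12, 1.33, 0.18 and -0.38, in that order). The log2 change was 0.64 (SE 0.26, adjusted p = 0.125). The replicate block gave a rise of 0.61 (SE 0.18, adjusted p = 0.00895). Without RAM siRNA input replicate 4, Lefty2 passed the test with no block as well, at 0.80 (adjusted p = 0.0322).

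In polysomes the Lefty genes had log2 changes close in size to those in input. Lefty1 was at 12.6, 11.7, 31.1 and 28.7 CPM with control and 39.2, 20.8, 62.0 and 27.5 CPM in RAM siRNA polysomes, with log2 ratios of 1.64, 0.83, 0.99 and -0.06. Lefty2 was at 14.9, 13.4, 13.1 and 16.1 CPM with control and 31.1, 14.3, 27.9 and 11.3 CPM in RAM siRNA polysomes, with log2 ratios of 1.06, 0.10, 1.09 and -0.51. Replicates 1 and 3 again showed the higher levels and replicate 4 did not, and the groups overlapped for both genes. Neither passed the test (Lefty1 0.88, SE 0.45, adjusted p = 0.626 and Lefty2 0.62, SE 0.32, adjusted p = 0.646). With the replicate block Lefty1 rose (0.89, adjusted p = 0.00568) and Lefty2 did not pass (0.51, adjusted p = 0.118).

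Skil and Smad7 encode brakes on the Nodal arm: SKIL (SnoN) represses SMAD2, SMAD3 and SMAD4 complexes, and SMAD7 is an inhibitory SMAD that also restrains BMP receptors. Skil (ENSMUSG00000027660, chr3:31095058-31122577, plus strand, 7 exons) was the steadiest of the 9 between siRNAs, in input at 118, 103, 135 and 122 CPM with control and 116, 110, 132 and 123 CPM with RAM siRNA. Each pair of same-numbered libraries lay within 0.10 on the log2 scale, and the fitted change was 0.01 (SE 0.09, adjusted p = 0.959). In polysomes Skil was at 69.1, 68.8, 56.1 and 51.7 CPM with control and 65.1, 68.8, 52.3 and 53.6 CPM after RAM siRNA (0.01, SE 0.16).

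Smad7 (ENSMUSG00000025880, chr18:75367529-75395935, plus strand, 6 exons) moved the other way from the Lefty genes. In input it was at 130, 150, 124 and 110 CPM with control and 104, 117, 98.5 and 68.5 CPM with RAM siRNA, lower in 4 of 4 pairs although RAM siRNA replicate 2 lay above control replicate 4. The log2 change was -0.41 (SE 0.14, adjusted p = 0.0805), and with the replicate block Smad7 fell by 0.42 (SE 0.05, adjusted p = 2.88e-06). Without the block it passed in DESeq2 (adjusted p = 0.0406), and with no filter on low counts so did, in edgeR, Smad7 (adjusted p = 0.00131), Lefty1 (adjusted p = 0.000725) and Lefty2 (adjusted p = 0.00466). In polysomes it was at 73.7, 81.3, 64.9 and 78.8 CPM with control and 54.1, 59.3, 56.6 and 44.8 CPM after RAM siRNA. There the groups did not overlap, as for 4.38% of all genes tested in this direction and 2.18% in the other. The polysome change of -0.42 (SE 0.16, adjusted p = 0.426) did not pass the test without the block and passed with it (-0.43, adjusted p = 0.0256).

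Bmp4 (ENSMUSG00000021835, chr14:46383520-46390669, minus strand, 4 exons) encodes the BMP ligand of the set. It shares 89 exon bases with Gm15217 on the opposite strand. The libraries keep the strand, but the counting setting is not given in the sources used here, so reads of the 2 genes may not be separated there. In input Bmp4 was at 156, 161, 119 and 144 CPM with control and 153, 156, 116 and 109 CPM with RAM siRNA. The groups overlapped, with replicate 4 as the pair that differed most (log2 ratio -0.41 against -0.03 to -0.05), and Bmp4 did not pass the test (-0.12, SE 0.13, adjusted p = 0.583, or 0.0666 with the replicate block). In polysomes it was at 147, 141, 159 and 168 CPM with control and 172, 107, 186 and 135 CPM after RAM siRNA, higher in replicates 1 and 3 and lower in replicates 2 and 4, with a fitted change of 0.02 (SE 0.21).

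Id1, Id2 and Id3 encode helix-loop-helix proteins without a DNA-binding region that sequester bHLH transcription factors, and all are direct BMP targets. In input Id1 passed the test in both fits, Id2 with the block and Id3 in neither. Id1 (ENSMUSG00000042745, chr2:152736251-152737410, plus strand) in input was at 46.1, 53.1, 47.2 and 57.1 CPM with control and 26.9, 33.9, 27.6 and 39.7 CPM with RAM siRNA. The 4 libraries of RAM siRNA were all below the 4 of control. Id1 fell to 62.8% of control (log2 fold change -0.67, SE 0.12, adjusted p = 0.00387, and 8.05e-09 with the replicate block). It did not pass with all 16 libraries in one fit (adjusted p = 0.285) or with replicates 3 and 4 alone (adjusted p = 0.467).

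In polysomes Id1 was at 52.7, 52.8, 64.6 and 104 CPM with control and 30.9, 23.7, 42.0 and 62.2 CPM after RAM siRNA. It was lower in 4 of 4 pairs, with log2 ratios of -0.77, -1.15, -0.62 and -0.74, but replicates 3 and 4 had more Id1 than replicates 1 and 2 under both siRNAs, so the groups overlapped. The change of -0.74 (SE 0.34, adjusted p = 0.572) did not pass the test. With the block Id1 fell by 0.77 (SE 0.12, adjusted p = 0.000575).

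Id2 (ENSMUSG00000020644, chr12:25093799-25097140, minus strand, 3 exons) in input was at 3.17, 3.71, 3.72 and 3.83 CPM with control and 2.57, 2.32, 2.68 and 3.06 CPM with RAM siRNA, again without overlap. Its change of -0.44 (SE 0.15, adjusted p = 0.0675) did not pass the test, while with the replicate block the same value did (adjusted p = 0.0189), as it did without RAM siRNA input replicate 4 (-0.51, adjusted p = 0.0405). Id2 in polysomes was at 2.55, 1.80, 4.06 and 4.83 CPM with control and 1.75, 1.38, 2.65 and 3.20 CPM after RAM siRNA, lower in 4 of 4 pairs with overlapping groups. The change there was -0.51 (SE 0.38, adjusted p = 0.835, and 0.0681 with the block).

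Id3 (ENSMUSG00000007872, chr4:136143497-136145755, plus strand, 4 exons) in input was at 9.94, 11.6, 16.9 and 9.17 CPM with control and 9.99, 12.2, 15.2 and 9.39 CPM with RAM siRNA. Same-numbered libraries were almost alike and differed more between replicates than between siRNAs (log2 fold change -0.03, SE 0.20, adjusted p = 0.948). The polysome libraries were at 8.18, 9.11, 17.1 and 16.5 CPM with control and 10.4, 6.42, 19.2 and 14.9 CPM after RAM siRNA (0.06, SE 0.39). The lower replicates 1 and 2 in polysomes, with more transcript in replicates 3 and 4, were shared by Id1, Id2 and Id3 under both siRNAs. Lefty1 also had the higher control levels in replicates 3 and 4 of both fractions, and Skil had the lower polysome levels in them.

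Promoter sequence, from RefSeq (GRCm38.p6, 250 bases before to 50 bases after the annotated start), was held for 4 of the 9 genes, Nodal, Bmp4, Id2 and Id3. Those of Id2 and Id3 are shown because both genes are BMP targets and of them Id2 passed the test in input, with the block, and Id3 did not. They were searched on both strands for the GC-rich SMAD motif GGCGCC and the SMAD box CAGAC, which do not overlap in these windows, and the matches are in capitals, the second match in Id3 being CAGAC on the other strand. Id2 lies at chr12:25096043-25096342 on the minus strand and Id3 at chr4:136143572-136143871 on the plus strand, and both RefSeq starts lie inside the GENCODE genes:
Id2: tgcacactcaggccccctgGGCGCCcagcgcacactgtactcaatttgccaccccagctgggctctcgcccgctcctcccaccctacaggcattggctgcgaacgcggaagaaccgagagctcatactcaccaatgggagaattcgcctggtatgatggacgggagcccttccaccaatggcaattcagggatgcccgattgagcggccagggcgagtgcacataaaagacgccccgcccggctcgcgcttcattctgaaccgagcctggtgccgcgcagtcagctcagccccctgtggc
Id3: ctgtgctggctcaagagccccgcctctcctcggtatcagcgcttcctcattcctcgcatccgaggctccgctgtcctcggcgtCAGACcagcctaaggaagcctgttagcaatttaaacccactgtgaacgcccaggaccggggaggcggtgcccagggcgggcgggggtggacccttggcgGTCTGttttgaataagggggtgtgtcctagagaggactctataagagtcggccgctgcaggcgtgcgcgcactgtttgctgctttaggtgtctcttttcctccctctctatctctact

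GGCGCC occurs in the Id2 window and in 11.9% of 32851 mouse promoter windows of this length, and CAGAC occurs in the Id3 window and in 49.6% of all. Neither is in the windows of Nodal and Bmp4. The palindromic SMAD element GTCTAGAC (0.213% of all windows) and the FOXH1 motif AATCCACA (0.855%) are in none of the 4. These are matches of letters within 300 bases and not sites.

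**Figure D2:**
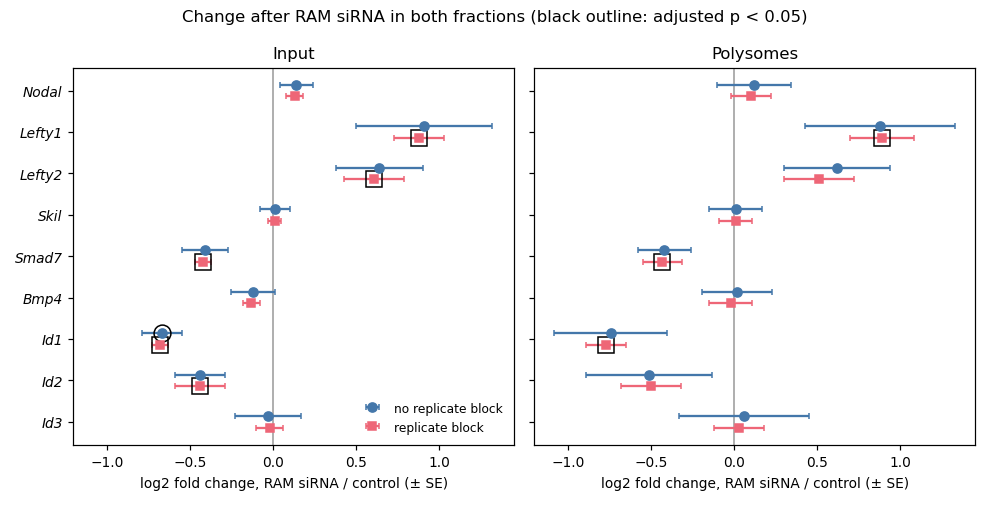
Log2 fold change of RAM siRNA over control (x axis, with the standard error of the fit) for each of the 9 genes (y axis) in input (left) and polysomes (right), without the replicate block (blue circles) and with it (red squares); a black outline marks an adjusted p under 0.05, from 4 libraries per group. Id1 alone is outlined without the block, and the values of both fits lie close together while most error bars are shorter with the block.

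Counted together, 1 of the 9 genes fell in input (Id1) and 0 rose, where 5.94% of all genes tested fell and 6.95% rose. With the replicate block 3 fell (Id1, Smad7 and Id2) and 2 rose (Lefty1 and Lefty2), where 19.0% of all genes fell and 20.3% rose. At an unadjusted p under 0.05 without the block there were 5, the same genes, beside 3591 of all genes (28.0%). DESeq2 called 2 of the 9, Id1 and Smad7, both lower, where 7.11% of all genes were called lower and 8.33% higher. The median log2 fold change of the 9 was -0.03, beside 0.00 over all genes. Input ranges did not overlap for 2 genes, Id1 and Id2, both lower after RAM siRNA, as was the case for 8.62% of all genes in that direction and 9.39% in the other. No test of the 9 genes as a list was made, and the counts are to be read beside these shares of all genes.

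In polysomes 0 of the 9 passed edgeR's test without the block, where 0.0234% of all genes fell and 0% rose. At an unadjusted p under 0.05, Smad7 was the single gene of the 9, beside 1152 of all genes, and DESeq2 also called 0 of the 9, where it called 1.13% of all genes lower and 1.22% higher. With the replicate block 2 fell (Id1 and Smad7) and 1 rose (Lefty1), where 4.97% of all genes fell and 9.68% rose. The median of the 9 was 0.02 and that of all genes 0.06. CPM values are shares of the reads of a fraction, so a change in the whole amount of polysomal RNA is not visible in them.

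Polysome loading is the ratio of a transcript's abundance in polysomes to that in input. Here its change after RAM siRNA was tested as an interaction, by how far a transcript moved in polysomes beyond its move in input. For the 9 genes this difference lay between -0.12 (Id1, SE 0.37) and 0.09 (Bmp4, SE 0.25). Of them, 0 passed with adjusted p = 1 each by edgeR's test on all 16 libraries, 0 had an unadjusted p under 0.05, and DESeq2 called 0. Over all genes 0% passed in either direction by edgeR, DESeq2 called 0.00783% lower and 0% higher, and 100 genes (0.781%) had an unadjusted p under 0.05. The standard errors ran from 0.19 for Skil to 0.66 for Lefty1, and with a block within each fraction from 0.10 to 0.35. A difference in loading was thus not detectable for any of the 9.

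Between polysomes and input of control cells the same genes separated widely, where 33.1% of all genes were higher in polysomes and 34.3% lower. This comparison uses the control libraries of the comparisons above. Nodal was enriched in polysomes by 1.16 on the log2 scale (SE 0.13, adjusted p = 1.84e-05), from 156 to 175 CPM in input to 296 to 436 CPM. Lefty2 was enriched by 0.90 (SE 0.16, adjusted p = 0.000477) and Lefty1 by 1.14 (SE 0.41, adjusted p = 0.0265). All 3 antagonist and ligand transcripts of the Nodal arm were higher in polysomes in 4 of 4 control pairs.

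For Lefty1 the pairs were almost alike, with log2 ratios of 1.20, 1.22, 1.26 and 1.04, and with the replicate block its standard error was 0.10 (adjusted p = 4.76e-05). Without the block it missed the threshold when input control replicate 1 or 2, or polysome control replicate 3 or 4, was left out (log2 values from 0.90 to 0.96, adjusted p from 0.0681 to 0.0781). Skil and Smad7 showed the opposite. Skil was depleted from polysomes by 0.99 on the log2 scale, to 50.2% of input (log2 fold change -0.99, SE 0.13, adjusted p = 5.12e-05). Smad7 was at 56.7% of input (log2 fold change -0.82, SE 0.13, adjusted p = 0.000175). Thus 3 of the 9 genes were higher in polysomes and 2 lower, where 33.1% of all genes were higher and 34.3% lower.

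The BMP arm stood between these. Bmp4 (0.05, SE 0.13), Id2 (-0.16, SE 0.27) and Id3 (0.07, SE 0.27) did not pass the test. Id1 was at 0.40 (SE 0.21, adjusted p = 0.112). Its pairs gave log2 ratios of 0.19, -0.01, 0.45 and 0.86, with the higher values in replicates 3 and 4. Id1 passed in 5 of 18 alternatives. These were edgeR without polysome control replicate 2 (0.52, adjusted p = 0.0315), with no filter (0.53, adjusted p = 0.01), with filterByExpr (0.49, adjusted p = 0.0445) and with replicates 3 and 4 alone (0.68, adjusted p = 0.0297). The last was DESeq2 with the block (0.37, adjusted p = 0.0455). Id2 passed with replicates 1 and 2 alone (-0.72, edgeR adjusted p = 0.0283) and not with replicates 3 and 4 alone. After RAM siRNA the ratios kept their places: Nodal lay between 0.89 and 1.31, Lefty1 between 0.89 and 1.55 and Lefty2 between 0.56 and 0.98, while Skil lay between -1.34 and -0.68 and Smad7 between -0.98 and -0.61.

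**Figure D3:**
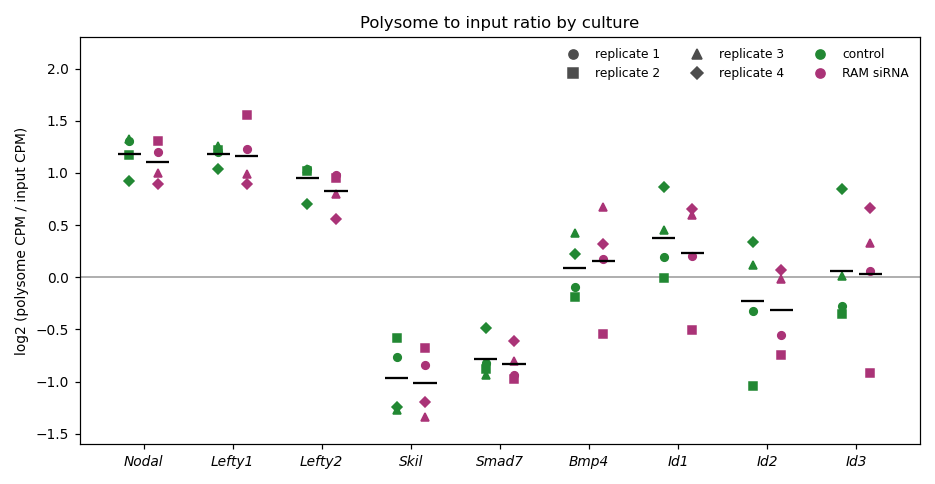
Log2 ratio of polysome to input CPM (y axis) of each of the 9 genes (x axis) in every culture, control in green and RAM siRNA in purple; marker shapes give the replicate and black bars the means of 4 cultures. Nodal, Lefty1 and Lefty2 lie above 0 in all 8 cultures and Skil and Smad7 below 0 in all 8, whereas the BMP arm genes lie on both sides.

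Beyond the 9 genes, 69 other genes of the pathway were listed by role and found in the table, and 51 of them had enough reads to be tested. In input 3 of the 51 fell and 4 rose, with a median of -0.03, where 5.94% of all genes fell and 6.95% rose. With the replicate block 15 fell and 10 rose, where 19.0% and 20.3% of all genes did. In polysomes 0 passed in edgeR without the block (5 had an unadjusted p under 0.05, and DESeq2 called 1 of all 60 pathway genes tested), and 5 fell and 6 rose with it, where 4.97% of all genes fell and 9.68% rose. In polysome loading 0 passed in edgeR or DESeq2, and 0 had an unadjusted p under 0.05.

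**Figure D4:**
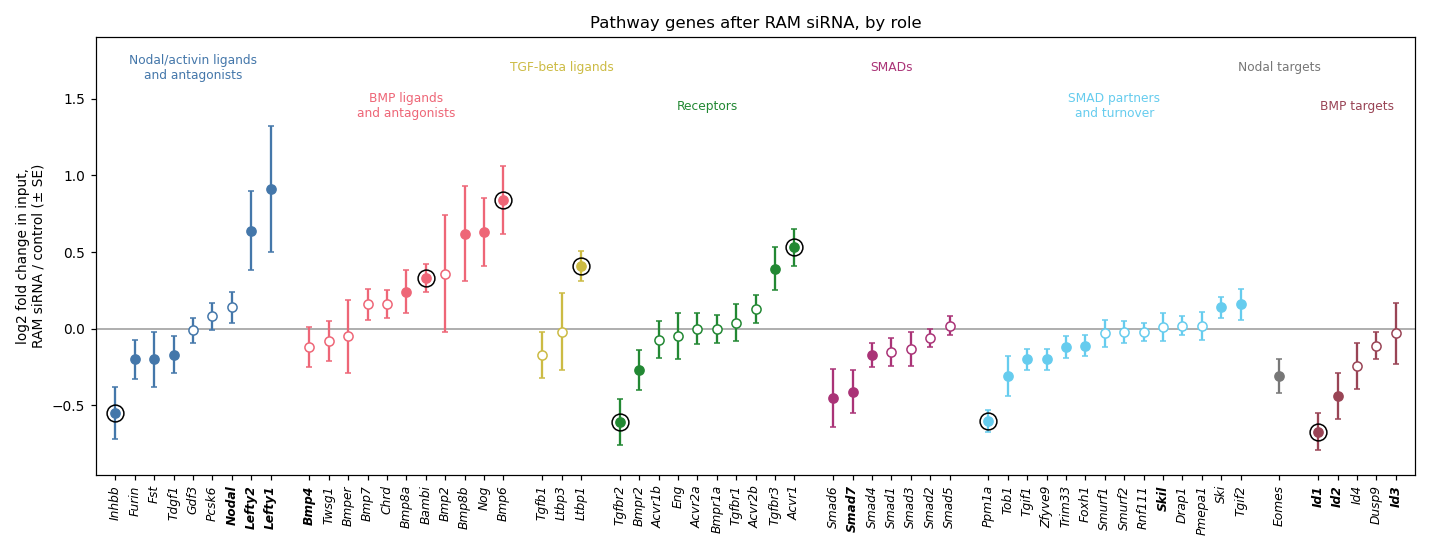
Log2 fold change of RAM siRNA over control in input (y axis, with the standard error of the fit without block, 4 libraries per group) for the 60 pathway genes tested, in groups by role (x axis; the 9 genes described here in bold); filled points passed with the replicate block, open points did not, and a black ring marks an adjusted p under 0.05 without it. SMAD genes lie mostly below 0 and BMP ligands and antagonists mostly above 0, and no role was tested as a list.

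Among Nodal and activin ligands, co-receptors, processing enzymes and antagonists outside the 9, 6 were tested, of which 1 fell and 0 rose (4 and 0 with the block). The one that fell was Inhbb, the beta B subunit of activin and inhibin, from 220 ± 47.0 to 151 ± 31.6 CPM (SD, n = 4), with a log2 fold change of -0.55 (SE 0.17, adjusted p = 0.0474). Of 10 BMP ligands and antagonists, 0 fell and 2 rose (0 and 5 with the block), and their median was 0.28. Bmp2, Nog, Bmp8b, Bmper and Bmp6 among them had control input means of only 0.786 to 1.31 CPM. For this and the other roles, the shares of all genes in input were 5.94% lower and 6.95% higher, and 19.0% and 20.3% with the block. Bmp6 rose by 0.84 on the log2 scale (SE 0.22, adjusted p = 0.0249), from 1.31 ± 0.302 to 2.35 ± 0.458 CPM, so at a low level. The pseudoreceptor gene Bambi, named after its values were seen, rose by 0.33 (SE 0.09, adjusted p = 0.0293).

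Nog, which encodes the BMP antagonist Noggin, and Bmp8b, a BMP ligand gene, were near 1 CPM. Nog was at 0.63 (SE 0.22, adjusted p = 0.0819, and 0.0329 with the block). Bmp8b was at 0.62 (SE 0.31, adjusted p = 0.213, and 0.0343 with the block). Of 3 TGF-beta ligand and latency genes, Ltbp1, a binding protein of latent TGF-beta, rose by 0.41 (SE 0.10, adjusted p = 0.0156), and 0 fell.

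Receptor genes split. Of 10 tested, 1 fell and 1 rose (2 and 2 with the block). Tgfbr2, the type II TGF-beta receptor, fell from 66.9 ± 11.2 to 43.9 ± 9.46 CPM (-0.61, SE 0.15, adjusted p = 0.0226). Acvr1, a type I receptor for BMPs, rose from 8.39 ± 0.728 to 12.2 ± 1.56 CPM (0.53, SE 0.12, adjusted p = 0.0127). Tgfbr3, or betaglycan, was at 0.39 (adjusted p = 0.0828, and 0.00401 with the block).

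None of the 6 SMAD genes tested outside the 9 passed in input without the block, and 2 fell with it, with 5 of 6 below 0. Smad6, the inhibitory SMAD of the BMP arm and itself a BMP target, was at 7.01 ± 1.84 and 5.15 ± 0.868 CPM (-0.45, SE 0.19, adjusted p = 0.142, and 0.00493 with the block). Of 13 SMAD partners, repressors and turnover genes, 1 fell (6 with the block) and 0 rose (2 with it). Ppm1a, a phosphatase that acts on SMAD2 and SMAD3, fell from 161 ± 10.2 to 106 ± 6.11 CPM (-0.60, SE 0.07, adjusted p = 0.000433). In polysomes Ppm1a went from 164 ± 16.6 to 88.2 ± 13.7 CPM, a change of -0.84 (SE 0.17) that did not pass without the block (adjusted p = 0.109) and passed with it (adjusted p = 0.000202). Tob1, whose product binds SMADs and the deadenylation machinery, was at -0.31 (SE 0.13, adjusted p = 0.152, and 0.000133 with the block).

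Of the other Nodal targets 2 were tested and 0 passed without the block. Eomes, a T-box factor of early mesendoderm, was at 14.9 ± 1.14 CPM in input with control and 12.0 ± 1.63 CPM with RAM siRNA (-0.31, SE 0.11, adjusted p = 0.0798, and 0.0068 with the block). Of 4 further BMP targets 0 fell and 1 rose (Bambi). With the block 1 of these 4 fell and 1 rose, and their median was -0.17. With Id1, Id2, Id3 and Smad7 included, 8 BMP targets were tested and 7 of them were below 0. Their median was -0.32, beside 0 over all genes tested. Of these 8, 1 fell and 1 rose without the block, where 5.94% of all genes fell and 6.95% rose. With the block 4 fell and 1 rose, where 19.0% of all genes fell and 20.3% rose. The 4 added genes were chosen with earlier results of these data known.

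Relative to input in control cells, 13 of the 51 genes were lower in polysomes and 20 higher, where 34.3% of all genes were lower and 33.1% higher. With the block 16 of the 51 were lower and 20 higher, and no share of all genes is given for that fit. The highest ratios among genes that passed were those of Gdf3, a Nodal-related ligand (1.31, SE 0.11), Nog (1.15, SE 0.30) and Fst, the activin antagonist follistatin (0.98, SE 0.24). The lowest were those of Smad5, a BMP SMAD (-1.31, SE 0.14), Acvr1b, the type I receptor used by Nodal and activin (-1.24, SE 0.22), and Bmpr2, the type II BMP receptor (-1.21, SE 0.16). By role, 7 of 9 Nodal and activin ligand and antagonist genes, Nodal and the Lefty genes included, were higher and 0 lower. With the block 7 of these 9 were higher and 1 lower. Of 14 SMAD partner, repressor and turnover genes, Skil included, 7 were lower and 2 higher, and of 10 receptors 4 were lower and 2 higher. With the block 8 of the 14 were lower and 2 higher, and the receptor counts stayed the same.

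Across the 16 libraries, which mix both fractions and both siRNAs, the levels of Lefty1 and Lefty2 had a Pearson r of 0.816, Id1 and Id2 of 0.733, Skil and Smad7 of 0.765, and Nodal and Skil of -0.838. The gene whose log2 CPM was most like that of each member was Srpr for Nodal (r = 0.996), Slc16a3 for Lefty1 (0.955), Tmem206 for Lefty2 (0.912), Zfp871 for Skil (0.986) and Trp53inp1 for Smad7 (0.954). For Bmp4 it was Eva1a (0.808), for Id1 Cops7b (0.986), for Id2 Gemin7 (0.930) and for Id3 Il17rc (0.941).

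Genes whose 3′ UTR holds ACTATC had a median log2 fold change of -0.066 in input against 0.009 for those without it, and for TGCTCA these were 0.015 and -0.010, among 12068 genes tested with an annotated 3′ UTR. Both sequences were marked in an earlier analysis of these data, so these medians are no independent check of them. Of the 12068 genes, 1850 hold ACTATC and 4633 hold TGCTCA. Among the 9 genes ACTATC occurs in the 3′ UTR of Skil (1 match) and TGCTCA in those of Skil (2 matches) and Lefty1 (1 match). Neither occurs in those of Nodal, Lefty2, Smad7, Bmp4, Id1, Id2 or Id3, whether or not these genes passed the test in input. The part of these sequences in the results was not tested.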

How the data were processed

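The files hold raw read counts per Ensembl gene, which the authors deposited without normalization or filter. Per the labels and methods, reads of ribosome-depleted, stranded libraries were mapped to GRCm38 (mm10) with STAR 2.5.1b and counted with htseq-count. The counting settings and annotation release are not given in the sources used here. Symbols and coordinates came from GENCODE M21, which matched 46488 of 46983 identifiers.

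Genes reaching 1 CPM in 10 or more of the 16 libraries were kept, as in the methods of the study. Counts were scaled by TMM and tested by quasi-likelihood F tests (edgeR 4.0.16, R 4.3.3), and p-values were adjusted over all 12805 genes by the Benjamini-Hochberg method with a threshold of 0.05. Comparisons within a fraction, or between fractions of control cells, used their 8 libraries, and polysome loading used all 16. CPM are TMM-scaled, correlations used log2 CPM with a prior count of 0.5, and errors beside CPM are SDs. The edgeR fit gives no standard error. The SE of an edgeR log2 fold change was taken as its absolute value divided by the square root of its F statistic. Each group has 4 libraries.

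The main fits had no term for the replicate. Where the text says only that a gene passed the test or not, these unpaired fits are meant. In input they called 761 genes lower and 890 higher, against 2433 and 2595 with the replicate block. The counts that the study reported for input are closer to those with the block. Same-numbered libraries departed from their group means together, with correlations of 0.289 to 0.590 in input, 0.513 to 0.871 in polysomes and 0.228 to 0.455 between the fractions of control cells, against means of -0.151, -0.246 and -0.116 for other numbers. Deviations from a group mean cancel over its libraries, so the negative means follow from the positive correlations and add no separate evidence. By the positive correlations the numbers pair the samples, and values with a replicate block are given where they change a call.

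The pathway genes named are the 6 largest falls and 6 largest rises in input among those that passed in either fit, and the 3 highest and 3 lowest polysome to input ratios in control cells past the threshold. For each member the gene with the highest correlation is named. Members, lists and rules were chosen with earlier results of these data known. The steps were also run on simulated counts with planted changes and no replicate effect. That run cannot tell how the fits behave where libraries are paired. Alternatives were DESeq2 1.42.0, RLE and upper-quartile scaling, other filters, all 16 libraries in one fit, culture as a factor, the block, replicate subsets, and each library left out in turn. Gdf1 was not analysed here. The sequence comparison of the Lefty genes is not reported here.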

Additional observations from a re-analysis of the deposited data

Results flagged for a closer look

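Nodal in RAM siRNA input replicate 4 was at 144 CPM, below the other 3 libraries of its group (194 to 198 CPM). Its gap to the nearest of them was 0.926 of the range of the group, above the 95% critical value of Dixon for 4 samples. Of 36 groups of 4 values (9 genes in 4 groups) this was the single one past that value, and chance gives about 1 in 20. Same-numbered control input was also the lowest of its group, at 156 CPM.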

How the results depend on the processing

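Of the 9 genes Id2 had the fewest counts, 24 to 85 per library. With the replicate block the count of the 9 genes past the threshold in input went from 1 to 5 and in polysomes from 0 to 3, and of the 60 pathway genes tested from 8 to 30 and from 0 to 14. Under DESeq2 with the replicate block these counts were 3, 2, 15 and 12, and with DESeq2 alone 2 in input for the 9 and 1 in polysomes for the 60. With no filter on low counts they were 4 and 16 in input, with all 16 libraries in one fit 0 and 1 in input and 2 of the 60 in polysomes, with replicates 1 and 2 alone 4 (Id1, Nodal, Lefty1 and Smad7) and 14 in input, and with replicates 3 and 4 alone 0 and 0. Leaving out 1 library in turn gave 1 to 4 of the 9 and 3 to 15 of the 60 in input, both highest without RAM siRNA replicate 4 (Nodal, Lefty2 and Id2 joined Id1), and 3 without control replicate 2 or RAM siRNA replicate 1 and 4 without control replicate 1. In polysome loading 0 passed in every alternative, and between fractions of control cells the counts stayed within 1.5 times. Shares of all genes called are given only for edgeR with and without the block and for DESeq2 alone. The counts under the other settings therefore do not show whether the listed genes differ from all genes. The causes were not tested. Id1 in input lost its call with all 16 libraries in one fit (-0.67, adjusted p = 0.285) and with replicates 3 and 4 alone (-0.64, adjusted p = 0.467), and kept it in the other 16 of 18 alternatives.

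The signs of values close to 0 that did not pass turned. Bmp4 in polysomes was 0.00 with RLE scaling or DESeq2, -0.04 with no filter, -0.02 with filterByExpr, the replicate block or replicates 1 and 2 alone, and -0.03 with all 16 libraries or DESeq2 with the block. Skil was -0.02, -0.01 and -0.01 in input with no filter, filterByExpr and replicates 3 and 4 alone, and in polysomes 0.00 with RLE scaling, DESeq2 or DESeq2 with the block, -0.04 with no filter or all 16 libraries and -0.01 with filterByExpr or replicates 1 and 2 alone. With replicates 1 and 2 alone Id3 was 0.03 in input, -0.01 in polysomes and -0.38 between control fractions, and Bmp4 was -0.20 between control fractions. With replicates 3 and 4 alone Id2 was 0.24 between control fractions and Nodal -0.10 in polysomes. Id3 in polysomes was 0.00 with no filter. In loading, replicates 1 and 2 alone gave 0.07 for Id2 and Nodal, -0.02 for Id3 and 0.17 for Lefty1, and no filter gave 0.01 for Lefty1 and Smad7, 0.00 for Lefty2 and Nodal and 0.02 for Skil (0.00 with filterByExpr). Loading of Id3 was 0.00 with either replicate block and -0.01 with culture as a factor, and that of Lefty1 0.00 with the block.

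With 1 library left out, values that turned ranged in polysomes from -0.14 to 0.16 (Bmp4), -0.26 to 0.29 (Id3), -0.01 to 0.25 (Nodal) and -0.09 to 0.06 (Skil), and in input from -0.19 to 0.19 (Id3) and -0.06 to 0.08 (Skil). Between control fractions they ranged from -0.04 to 0.11 (Bmp4), -0.41 to 0.06 (Id2) and -0.10 to 0.28 (Id3). In loading they ranged from -0.03 to 0.22 (Bmp4), -0.42 to 0.15 (Id1), -0.32 to 0.13 (Id2), -0.24 to 0.25 (Id3), -0.43 to 0.42 (Lefty1), -0.32 to 0.16 (Lefty2), -0.19 to 0.08 (Nodal), -0.12 to 0.07 (Skil) and -0.14 to 0.05 (Smad7).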
